A study of Mus musculus with 4 samples.

Results

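Hcar2, Gpr84, Ffar2, Adora2a, Adora2b and P2rx4 encode 6 cell surface receptors that sense metabolites or nucleotides. They were chosen by symbol, for the strong level of Hcar2 in tumor neutrophils, to describe which related receptors follow it. Of these 6 genes, 5 were measured among the 18894 genes of the series, and Adora2a was not analysed here. The level in tumor against blood therefore chose the genes, so their differences between the tissues are given as a description, with no test.

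Neutrophils came from 3 mice of genotype FVB, an inbred strain, which had been injected with Py7160, a mouse mammary tumor cell line, and otherwise received no treatment. Cells were taken from tumors about 1 cm across, 2 to 3 weeks after injection, and from the blood of the same mice, pulled down through their surface Ly6G (about 90% pure) and flow sorted as CD11b+ Ly6G+ cells (over 99% pure). Cells of each mouse were marked with a hashtag, an antibody that carries a short DNA label. For each tissue the cells of all 3 mice then went into 1 library by Drop-seq, which catches single cells with barcoded beads in droplets. Tissue, library and the way the cells were released (enzymes for tumor, red cell lysis for blood) cannot be told apart. A p-value for tumor against blood reflects counting error and how much mice differ inside each library, and no spread between libraries. Where tumor cells are split by a gene, with the mouse as a block, it reflects counting error and how the difference varies between mice of that library.

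Neutrophils carry receptors for small molecules that accumulate where tissue is damaged, starved of oxygen or fed by microbes. Hcar2 is the receptor for the ketone body beta-hydroxybutyrate and for niacin, Ffar2 for short-chain fatty acids such as acetate, and Gpr84 for medium-chain fatty acids. The first couples to inhibitory G proteins, which lower cyclic AMP, and the fatty acid receptors also signal through inhibitory G proteins in myeloid cells. Adora2a and Adora2b are adenosine receptors that couple to the stimulatory G protein and raise cyclic AMP, and P2rx4 is a cation channel opened by extracellular ATP. In neutrophils such receptors are known for their effects on migration, degranulation and cytokine release.

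After removal of barcodes with under 200 genes, over 15% mitochondrial counts or no clear hashtag, 841 tumor and 1375 blood cells remained. They held 572844 and 1147068 UMIs, which are counts of unique RNA molecules, with a median of 572 and 655 per cell. Tumor mice 1, 2 and 3 contributed 106, 564 and 171 cells, so tumor mouse 2 had the most counts and tumor mouse 1 the fewest. In tumor barcodes with 20 to 60 UMIs, a range usually read as free RNA, hashtag 2 made up 68.9% of the hashtag counts. Another assignment, HTODemux, gave tumor mice 1, 2 and 3 136, 235 and 211 cells. Whether cells of tumor mice 1 or 3 were assigned to tumor mouse 2 was not tested. Any such cells would lessen the spread seen between the tumor mice. All 8 neutrophil markers were detected in both tissues, at a summed level of 66650 to 80870 CPM (a gene's UMIs out of every 1000000 UMIs of the same mouse) in the tumor mice and 178900 to 206700 CPM in the blood mice. Markers of other cells were present as well. Tumor held all 11 monocyte and macrophage markers, at 482 to 2208 CPM by mouse, and 4 of 7 markers of MHC class II and dendritic cells, at 156 to 2854 CPM. Blood held 5 of the 11 macrophage markers, at 616 to 651 CPM, with C1qa, C1qb, C1qc and Mrc1 among those at 0, and the class II list at 36.6 to 133 CPM. Ly6c2 made up 422 of the 725 blood UMIs of the monocyte and macrophage list, and Apoe 648 of the 1090 tumor UMIs. Ly6c2 was left out where cells are sorted below by macrophage or class II UMIs or by markers of other types. Hemoglobin and other red cell genes were at 0 in tumor, and the blood mice had 13960 to 22150 CPM of them. Markers of T and NK cells reached 38.9 CPM in tumor and 292 CPM in blood, and epithelial markers at most 8.56 CPM in either.

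In the mouse genome GRCm38, by the GENCODE M21 annotation, all 6 genes are protein coding. Hcar2 lies at chr5:123863570-123865499 on the minus strand and P2rx4 at chr5:122707544-122729738 on the plus strand, 1133832 base pairs away on the same chromosome. Gpr84 lies at chr15:103308235-103310612 (minus), Ffar2 at chr7:30818348-30823775 (minus), Adora2a at chr10:75316877-75334784 (plus) and Adora2b at chr11:62248984-62266453 (plus). Gpr84 overlaps Gm49482 on the opposite strand, and reads of the pair may be mixed, since strand use in the counting is not given in the sources used here.

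RefSeq promoter sequences of build GRCm38.p6 matched 4 of the 6 genes: Gpr84, Ffar2, Adora2b and P2rx4. The 250 bases before the start are printed for the receptors with a higher CPM in tumor, P2rx4 (chr5:122707294-122707543, plus strand) and Gpr84 (chr15:103310439-103310688, minus strand), and for the receptor with more in blood, Ffar2, at the first of its 4 listed starts (chr7:30823776-30824025, minus strand). Each reads 5′ to 3′ on the strand of its gene, and capitals mark matches to any of 7 searched motifs.
P2rx4: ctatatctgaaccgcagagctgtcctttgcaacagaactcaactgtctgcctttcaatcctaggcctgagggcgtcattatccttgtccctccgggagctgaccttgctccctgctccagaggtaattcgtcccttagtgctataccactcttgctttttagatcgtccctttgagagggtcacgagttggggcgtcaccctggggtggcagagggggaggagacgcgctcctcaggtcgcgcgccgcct
Gpr84: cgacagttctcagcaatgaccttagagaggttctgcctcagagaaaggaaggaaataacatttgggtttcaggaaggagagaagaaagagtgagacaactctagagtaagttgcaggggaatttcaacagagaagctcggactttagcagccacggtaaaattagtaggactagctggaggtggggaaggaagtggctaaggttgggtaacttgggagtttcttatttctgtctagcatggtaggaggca
Ffar2: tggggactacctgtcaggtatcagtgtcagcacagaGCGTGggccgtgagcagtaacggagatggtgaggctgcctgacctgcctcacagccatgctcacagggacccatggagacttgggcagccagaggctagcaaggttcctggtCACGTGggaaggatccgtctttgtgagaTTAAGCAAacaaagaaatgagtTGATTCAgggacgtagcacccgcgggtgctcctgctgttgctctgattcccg
The motifs were TGANTCA (AP-1), TGACGTCA (CRE, the cyclic AMP response element), ACGTG and GCGTG (cores of the hypoxia response element), TTGCNNAA (C/EBP), GAGGAAG (PU.1) and that of NF-kB, read on both strands. The P2rx4 and Gpr84 windows held a match to none of them. The Ffar2 window held the AP-1 letters 52 to 46 bases before the start, C/EBP letters at 74 to 67 on the opposite strand, ACGTG at 101 to 97, overlapping the same core on the opposite strand at 102 to 98, and GCGTG at 214 to 210. The Adora2b window held GCGTG on the opposite strand, 42 to 38 bases before the start. Among 32851 promoter windows of the same length, 6.75% held the AP-1 letters, 1.55% CRE, 16.6% ACGTG, 28.2% GCGTG, 9.56% C/EBP, 10.6% PU.1 and 5.0% NF-kB. A match is a description of letters and not of a bound site.

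Hcar2 was abundant in tumor neutrophils and scarce in blood neutrophils. Tumor mice 1, 2 and 3 had 2464, 2413 and 2901 CPM of Hcar2, from 174, 930 and 339 UMIs. Blood mice 1, 2 and 3 had 32.1, 28.9 and 9.08 CPM, from 14, 11 and 3 UMIs. Every tumor mouse lay far above every blood mouse, and the tumor mice differed little among themselves. The means were 2593 ± 268 CPM in tumor and 23.4 ± 12.5 CPM in blood (SD, n = 3 mice). Over the summed cells the ratio of tumor to blood was 103 (95% interval 71.1 to 156, counting error only), and the fitted log2 fold change was 6.73 with a standard error of 0.23.

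The receptors that lay on the same side as Hcar2 were P2rx4 and Gpr84, at far fewer UMIs. P2rx4, the ATP-gated channel, had 42.5, 54.5 and 25.7 CPM in tumor mice 1, 2 and 3, from 3, 21 and 3 UMIs. In blood mice 1, 2 and 3 P2rx4 had 6.87, 5.26 and 6.06 CPM, from 3, 2 and 2 UMIs. All tumor mice were above all blood mice, and tumor mouse 2 was the highest and held 21 of the 27 tumor UMIs. The means were 40.9 ± 14.5 CPM and 6.06 ± 0.804 CPM (SD, n = 3 mice), the summed ratio was 7.72 (95% interval 3.28 to 21.0), and the fitted log2 fold change was 2.62 ± 0.64 (SE), or 1.91 without tumor mouse 2.

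Gpr84, the medium-chain fatty acid receptor, had 28.3, 28.5 and 17.1 CPM in tumor mice 1, 2 and 3, from 2, 11 and 2 UMIs. Blood mice 1, 2 and 3 had 16.0, 2.63 and 6.06 CPM of Gpr84, from 7, 1 and 2 UMIs. The lowest tumor mouse and the highest blood mouse were nearly level, so the tissues were separated by a narrow margin. The means were 24.7 ± 6.54 CPM and 8.24 ± 6.96 CPM (SD, n = 3 mice), the summed ratio was 3.00 (95% interval 1.26 to 7.48), and the log2 fold change of 1.34 had a standard error of 0.69. It was 2.32 without blood mouse 1, 0.86 without tumor mouse 2 and 0.96 without blood mouse 2.

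Ffar2, the short-chain fatty acid receptor, lay on the opposite side. Blood mice 1, 2 and 3 had 32.1, 36.8 and 24.2 CPM of Ffar2, from 14, 14 and 8 UMIs, and tumor mouse 2 had 5.19 CPM from 2 UMIs, while tumor mice 1 and 3 had 0. Every blood mouse was above every tumor mouse. The means were 31.0 ± 6.37 CPM in blood and 1.73 ± 3.00 CPM in tumor (SD, n = 3 mice). The summed level was 8.99 times higher in blood, with a wide 95% interval of 2.31 to 77.1, and the fitted log2 fold change of tumor over blood was -3.19 ± 0.83 (SE). Without tumor mouse 2 no tumor UMI of Ffar2 was left.

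Adora2b, a low-affinity adenosine receptor, was at the limit of detection. A single UMI was found in tumor mouse 1, which is 14.2 CPM there, and 0 in tumor mice 2 and 3 and in the 3 blood mice. With 3 counts taken as the limit, a count of 0 in 1375 blood cells allows a share of up to 0.218% of cells with a UMI, and a level of up to 2.62 CPM, and no difference between the tissues could be detected at such counts.

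Hcar2 was the 1 of the 5 receptors that passed the low-count filter, and the log2 fold changes of the others come from the same fit without that filter, where Hcar2 was at 6.44 ± 0.27 (SE). For 4 of the 5 receptors no tumor mouse overlapped a blood mouse, which held for 24.3% of all genes with a UMI, 32.3% of genes with 10 to 40 UMIs and 63.0% of the genes tested after the filter. This count rests on the contrast that chose the genes, and nothing is read from it.

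**Figure D1:**
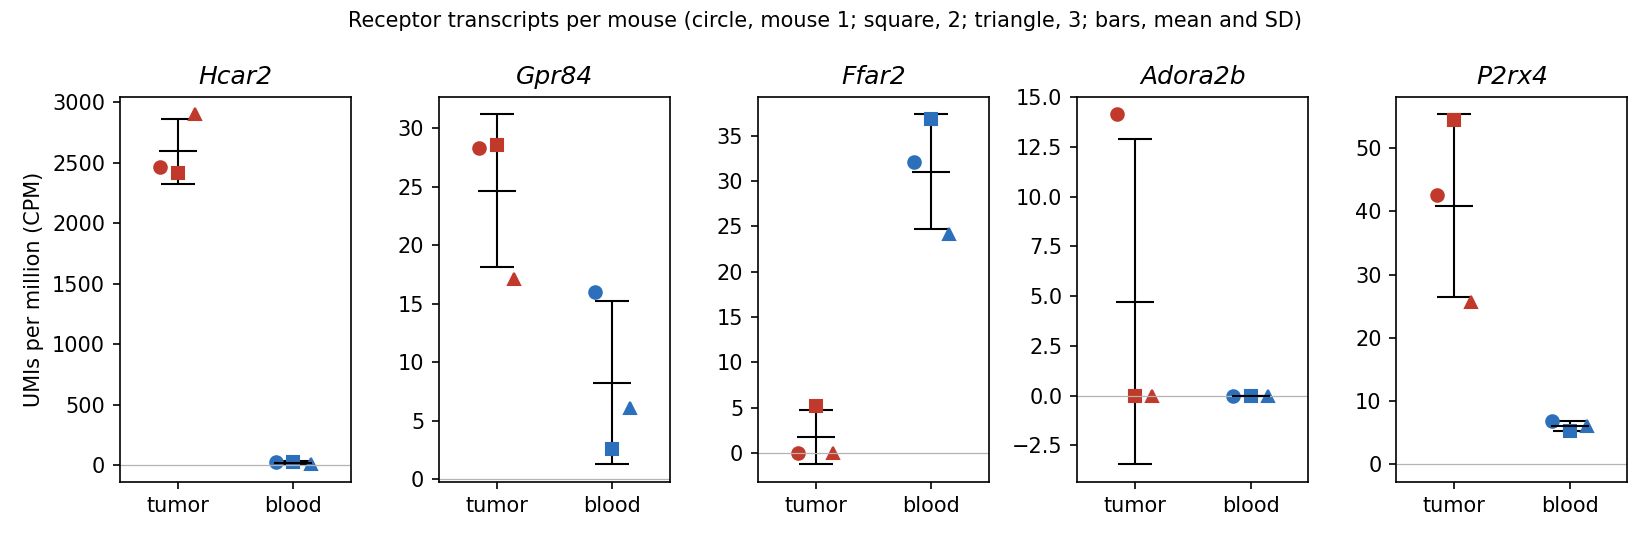
Level of each of the 5 measured receptors (vertical axis, CPM, linear and different in each panel) in tumor (red) and blood (blue) neutrophils, with 1 symbol per mouse (circle, square and triangle for mice 1, 2 and 3) and bars for the mean and SD of 3 mice. Hcar2 sits at 2413 CPM or more in every tumor mouse and at 32.1 CPM or less in every blood mouse, P2rx4 and Gpr84 are higher in tumor at under 55 CPM, Ffar2 is higher in blood, and Adora2b has a single UMI.

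The level of Hcar2 came from many tumor cells. An Hcar2 UMI was seen in 526 of 841 tumor cells, or 62.5% (exact 95% binomial interval 59.2 to 65.8), and in 26 of 1375 blood cells, or 1.89% (1.24 to 2.76). When each cell was thinned to 441 UMIs, which left out 209 tumor and 254 blood cells as too shallow, the expected share was 59.7%, 53.4% and 62.6% in tumor mice 1, 2 and 3. In blood mice 1, 2 and 3 it was 1.19%, 1.41% and 0.136%. The tumor mice thus kept a high share at equal depth, 58.6% ± 4.69 against 0.913% ± 0.682 in blood (SD, n = 3 mice). The mean level of all assigned tumor cells, spread evenly, would give 68.0% at 441 UMIs. That level includes the cells left out as too shallow, so the 2 shares do not rest on the same cells.

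Within tumor, Hcar2 counts were unequal between cells. No Hcar2 UMI was seen in 315 cells, 1 in 185, 2 in 127, 3 to 5 in 161, and 6 or more in 53 cells, with a maximum of 16. The 85 cells with the most held 39.8% of all Hcar2 UMIs, and the variance over cells, 4.84, exceeded the mean of 1.72. Cells with an Hcar2 UMI were deeper, with a median of 605.5 UMIs against 518 in cells without one. No blood cell held more than 2 Hcar2 UMIs.

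**Figure D2:**
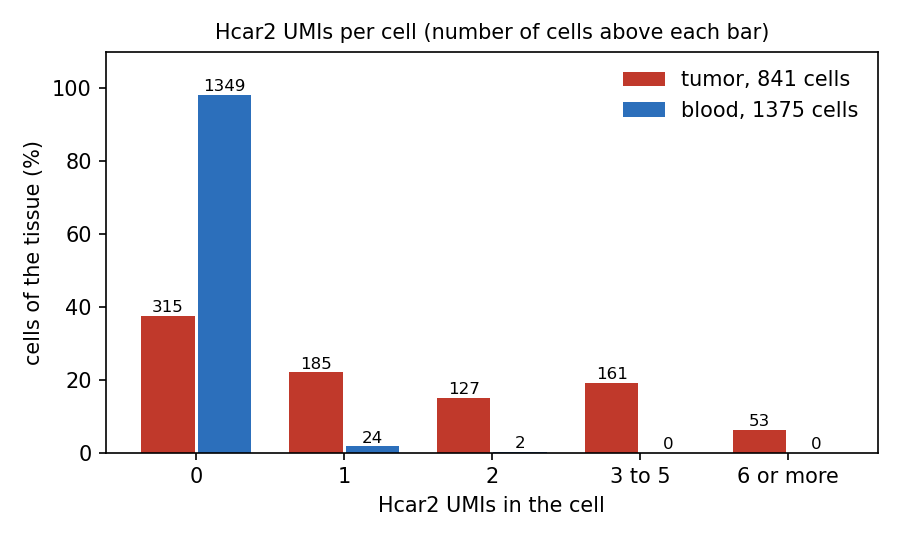
Share of the cells of a tissue (vertical axis, percent) by the number of Hcar2 UMIs in the cell (horizontal axis), for 841 tumor cells (red) and 1375 blood cells (blue), with the number of cells above each bar. In tumor 315 cells held none and 53 held 6 or more, whereas 1349 blood cells held none and none held more than 2.

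The other receptors were seen in few cells of either tissue. P2rx4 had a UMI in 20 tumor cells (2.38%) and 7 blood cells (0.509%), Gpr84 in 13 (1.55%) and 10 (0.727%), and Ffar2 in 2 (0.238%) and 28 (2.04%). At 441 UMIs per cell the mean shares in tumor and blood were 1.46% ± 0.856 and 0.250% ± 0.134 for P2rx4, 0.884% ± 0.452 and 0.377% ± 0.321 for Gpr84, and 0.0110% ± 0.0190 and 1.02% ± 0.424 for Ffar2 (SD, n = 3 mice). Even spread of the level in all assigned cells, shallow ones included, would give 1.79% of tumor cells for P2rx4 and 1.36% of blood cells for Ffar2. Both are close to the shares seen, within the spread between mice.

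Whether the rarer receptors sat in the cells with Hcar2 could not be resolved. Of the 20 tumor cells with P2rx4, 13 also held Hcar2, and of the 13 with Gpr84, 7 did. P2rx4 was at 52.3 CPM (95% interval 31.5 to 81.6) in the 526 cells with Hcar2 and at 38.2 CPM (16.5 to 75.3) in the other 315. Gpr84 was at 24.8 CPM (11.3 to 47.0) and 28.7 CPM (10.5 to 62.4). The intervals overlap widely for both receptors, and both tumor UMIs of Ffar2 and the UMI of Adora2b were in cells with Hcar2.

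Hcar2 RNA was also found in tumor barcodes too shallow to be kept as cells. In the 5945 tumor barcodes with 20 to 60 UMIs, Hcar2 was at 877 CPM (95% Poisson interval 768 to 996), below its level in assigned cells and above the 4.05 CPM (0.103 to 22.6) of such barcodes in blood. RNA of that composition alone would give 32.1% of tumor cells a UMI at 441 UMIs per cell, against the 58.6% seen. In the same blood barcodes it would give 0.178%. For P2rx4, RNA of the low barcodes would give 0.982% of tumor cells a UMI, against the 1.46% ± 0.856 observed, so the P2rx4 share was not separated from it beyond the spread between mice.

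The level of Hcar2 also differed with the number of genes detected in a cell. Tumor cells with 200 genes or more but under 300 had 3218 CPM (95% interval 2980 to 3471), those with 300 or more but under 500 had 2542 CPM (2344 to 2753), and those with 500 or more 1296 CPM (1103 to 1512). Cells with 500 genes or more were the lowest in each mouse, at 1961, 1321 and 803 CPM in mice 1, 2 and 3, against 2394, 3175 and 3886 CPM under 300 genes. Of these richest cells, 1 of 9, 20 of 60 and 2 of 11 held 2 or more UMIs of macrophage or class II markers.

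Hcar2 was likewise lower in cells with macrophage or class II transcripts. It was at 2755 CPM (95% interval 2595 to 2921) in the 632 tumor cells with none of those UMIs, 2304 CPM (2014 to 2624) in the 140 with 1, and 1453 CPM (1183 to 1765) in the 69 with 2 or more. Those 69 cells held 7.0% of the tumor Hcar2 UMIs and 12.1% of all tumor UMIs. P2rx4 had 86.3 CPM (31.7 to 188) in the same 69 cells and 44.5 CPM (26.4 to 70.3) in the 632 cells without such UMIs, with overlapping intervals. They held 22.2% of the tumor UMIs of P2rx4 and 20% of those of Gpr84. Without cells that held markers of other types, the log2 fold change of tumor over blood was 6.78 for Hcar2, 2.56 for P2rx4 and 1.36 for Gpr84, close to the values with them.

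**Figure D3:**
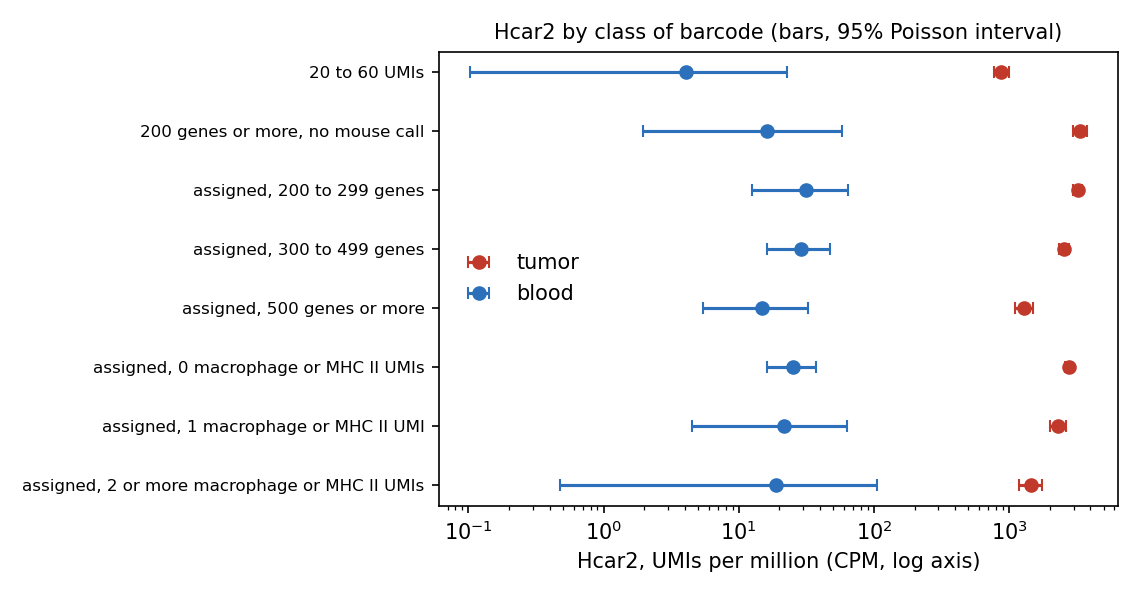
Level of Hcar2 (horizontal axis, CPM, log scale) in summed classes of barcodes of tumor (red) and blood (blue), with exact 95% Poisson intervals that cover counting error only. Tumor is above blood in every class, and among assigned tumor cells the level is lower at 500 or more genes (1296 CPM) and with 2 or more macrophage or MHC class II UMIs (1453 CPM).

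Relatives of these receptors and the genes that act with them moved in both directions between the tissues. Of 96 such genes in 9 lists, 74 were measured and 35 passed the low-count filter. In tumor 11 were higher, 14 were lower and 10 did not pass, by edgeR's quasi-likelihood test with Benjamini-Hochberg adjusted p under 0.05. That is 71.4% called, against 60% of all 3674 genes tested (30.2% higher, 29.8% lower). The median log2 fold change was -0.17 over the 35 and -0.04 over all genes tested, so the lists did not lean toward the side of Hcar2.

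Among receptors for carboxylates and lipids, Gpr35, which responds to tryptophan metabolites, was the 1 of 12 genes with enough counts to test, and it rose in tumor. Its level in tumor mice 1, 2 and 3 was 170, 200 and 146 CPM. The means were 172 ± 27.2 CPM in tumor and 37.2 ± 7.17 CPM in blood (SD, n = 3 mice), a log2 fold change of 2.33 ± 0.27 (SE; edgeR adjusted p = 1.14e-06). Among receptors for protons, Gpr65, which raises cyclic AMP in acid surroundings, fell in tumor, from 95.6 ± 12.9 CPM in blood to 29.8 ± 12.4 CPM (log2 fold change -1.89 ± 0.37, edgeR adjusted p = 0.00034).

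Receptors for adenosine and nucleotides other than the chosen ones were thinly measured. Adora3, an adenosine receptor that couples to inhibitory G proteins, had 2 tumor UMIs against 20 blood UMIs and did not pass in the unfiltered fit (edgeR adjusted p = 0.0755), and Adora1 had 1 UMI in each tissue. P2rx7, the channel that opens at high ATP, had 7 UMIs, all in tumor mouse 2, against 1 in blood. P2ry2, the ATP and UTP receptor known for guiding neutrophils, had 45.0 ± 11.2 CPM in tumor against 19.3 ± 1.63 CPM in blood (log2 fold change 1.21 ± 0.39, edgeR adjusted p = 0.0123), a call lost under 6 of 14 alternatives, among them leaving out tumor mouse 2 (adjusted p = 0.123) or blood mouse 1, 2 or 3 (adjusted p = 0.0786, 0.075 and 0.0615). P2ry13, an ADP receptor, fell from 48.3 ± 16.3 CPM in blood to 16.0 ± 23.4 CPM (log2 fold change -1.85 ± 0.63, edgeR adjusted p = 0.0185), but its mice overlapped and the call was lost in 3 of 15 alternatives: without tumor mouse 2 (-0.80, edgeR adjusted p = 0.405), with HTODemux (-1.24, edgeR adjusted p = 0.0875) and with DESeq2 (adjusted p = 0.0526). Without tumor mouse 3 P2ry13 was at -3.28. In the unfiltered fit 3 of 5 P2Y receptors with counts were called lower in tumor and 0 higher, against 8.71% of 16032 genes called lower and 7.69% higher (16.4% in all). Those 16032 genes include every gene with a UMI in any sum. In the filtered fit 29.8% of 3674 genes were called lower and 60% in either direction, so no trait of P2Y receptors is read from this count. Besides P2ry13 the P2Y receptors called lower were the ADP receptors P2ry12, with 3 UMIs in tumor and 34 in blood (edgeR adjusted p = 0.00694), and P2ry1, with 0 and 16 UMIs, or at least 2.66-fold lower against 3 counts over the summed tumor cells (edgeR adjusted p = 0.01). P2ry12 and P2ry1 were named after their values were seen. P2ry2 did not pass in the unfiltered fit (log2 fold change 0.975, edgeR adjusted p = 0.22). Log2 fold changes there were lower than with the filter for P2ry2, for P2ry13 (-2.05 against -1.85) and for Hcar2 (6.44 against 6.73).

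Among enzymes that release or break down nucleotides, Pnp, the purine nucleoside phosphorylase, rose to 66.1 ± 32.5 CPM in tumor from 4.18 ± 2.34 CPM in blood (log2 fold change 3.76 ± 0.52, edgeR adjusted p = 9.18e-06). Bst1, an ectoenzyme that uses NAD, was lower in tumor, at 181 ± 14.9 against 297 ± 30.5 CPM in blood (log2 fold change -0.69 ± 0.18, edgeR adjusted p = 0.00309). It is named after its values were seen. Entpd1 (CD39), which cleaves extracellular ATP and ADP, had a log2 fold change of 0.38 that did not pass (edgeR adjusted p = 0.0948).

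The G protein and cyclic AMP list, the longest, had 6 genes higher and 10 lower of 20 tested, or 80% against 60% of all genes tested, with a median log2 fold change of -0.32. Both the higher and the lower genes included brakes on the pathway. Rgs1, a brake on G protein signalling, was at 368, 747 and 685 CPM in tumor mice 1, 2 and 3, and 600.0 ± 203 CPM on average, against 3.05 ± 5.29 CPM in blood, where 4 UMIs were all in mouse 1 (log2 fold change 7.39 ± 0.45, edgeR adjusted p = 3.08e-10); without that mouse no blood UMI of Rgs1 was left. Crem, a cyclic AMP responsive transcription factor, rose by 4.34 ± 0.48 on the log2 scale (edgeR adjusted p = 7.62e-07), and Pde4d, a cyclic AMP phosphodiesterase, by 3.19 ± 0.59 (edgeR adjusted p = 0.000171). Pde4d had 5 UMIs in blood, 4 of them in mouse 1, and its log2 fold change was 4.42 without blood mouse 1, 2.57 without blood mouse 3 and 4.15 without cells that held markers of other types. Lower in tumor were Rgs2, another brake on G proteins, at 326 ± 49.4 CPM against 2415 ± 257 CPM in blood (log2 fold change -2.80 ± 0.16, edgeR adjusted p = 1.03e-10), Rgs19 at -3.11 ± 0.38 and the receptor kinase Grk6 at -2.74 ± 0.44 (edgeR adjusted p = 2.06e-06 and 4.61e-05). Grk6 was at -4.05 without tumor mouse 2, which held 7 of its 8 tumor UMIs.

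In the ketone and lactate list, Slc16a3, the lactate exporter MCT4, rose from 195 ± 51.5 CPM in blood to 463 ± 76.4 CPM in tumor (log2 fold change 1.34 ± 0.20, edgeR adjusted p = 2.54e-05). Of 5 other chemoattractant receptors tested, Ptafr, the receptor for platelet-activating factor, rose from 117 ± 25.6 to 478 ± 59.1 CPM (log2 fold change 2.07 ± 0.19, edgeR adjusted p = 9.01e-08). Ltb4r1, the leukotriene B4 receptor, had 58.2 ± 49.6 CPM in tumor against 118 ± 7.63 CPM in blood (log2 fold change -1.25 ± 0.34, edgeR adjusted p = 0.00455), a call lost without tumor mouse 2 (adjusted p = 0.0846). The complement receptor C5ar1 (log2 fold change 0.11) and the formyl peptide receptors Fpr1 and Fpr2 did not pass. In the unfiltered fit Fpr1 was called lower in tumor (edgeR adjusted p = 0.0187). C3ar1, with 9 tumor UMIs and 0 in blood, was called higher there (edgeR adjusted p = 0.00268) and is named after its values were seen. The tumor cells also held macrophage and class II transcripts, as given above. Without the cells that held markers of other types, every gene named here from the lists as called in the filtered fit, Bst1 aside, kept its call and direction, for example Gpr35 at 2.30, Rgs1 at 7.27, Ptafr at 2.13 and Ltb4r1 at -1.14 on the log2 scale (edgeR adjusted p = 0.0161 for the last). The value of Bst1 in that fit is not given here.

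**Figure D4:**
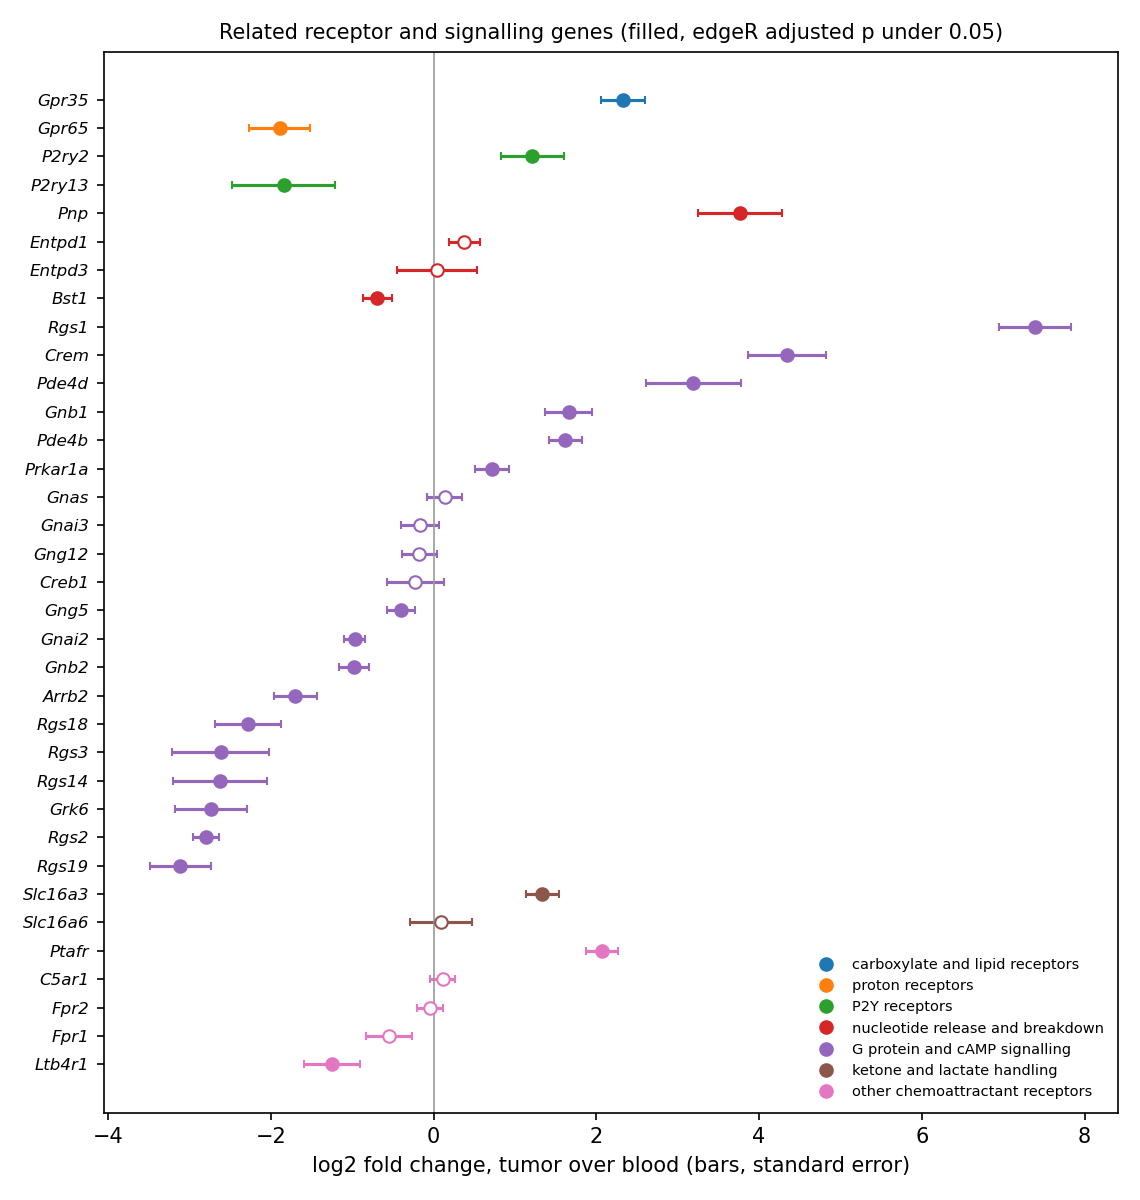
Log2 fold change of tumor over blood (horizontal axis, bars for the standard error) for the 35 tested genes of the related lists, coloured by list, with filled symbols at an edgeR adjusted p under 0.05. Of these genes 11 lie to the right and 14 to the left as filled symbols, from Rgs1 at 7.39 to Rgs19 at -3.11, and 10 are open.

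Which genes went with Hcar2 from cell to cell was tested within the tumor library, a comparison that did not choose the receptors. The chemokines Ccl3 and Ccl4 were higher, and the neutrophil genes Ngp and Retnlg lower, in cells with an Hcar2 UMI. With HTODemux assignment of the mice Retnlg did not pass and Ngp had no result. Cells were thinned to 441 UMIs, and in mice 1, 2 and 3 the UMIs of 49, 233 and 80 cells with Hcar2 were summed apart from those of 32, 190 and 48 cells without it, with the mouse as a block and Hcar2 itself left out. At that depth, RNA of the composition of the low-UMI barcodes would alone give 32.1% of tumor cells an Hcar2 UMI. The split therefore marks detection of a UMI and not expression by the cell, and the share of free RNA in it was not tested. Of 433 genes tested, 3 were higher and 7 lower in cells with Hcar2 (edgeR, adjusted p under 0.05), which is 0.693%, 1.62% and, together, 2.31% of those tested, and 67 had an unadjusted p under 0.05. None of the other receptors had enough counts to be tested, and of the 7 genes of the related lists that were tested 0 were called.

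Ccl4, the chemokine MIP-1beta, was at 4649, 7375 and 6239 CPM in the cells with Hcar2 of mice 1, 2 and 3, and at 2764, 3485 and 1842 CPM in the cells without. It was higher in 3 of 3 mice, and the groups did not overlap. The means were 6088 ± 1369 and 2697 ± 823 CPM (log2 difference 1.06 ± 0.19, edgeR adjusted p = 0.00231). Ccl3, the chemokine MIP-1alpha, was at 8833, 8441 and 12480 CPM in cells with Hcar2 against 3614, 5156 and 6425 CPM in cells without, also higher in 3 of 3 mice (log2 difference 0.81 ± 0.17, edgeR adjusted p = 0.00648). Both calls held in 12 of 12 alternatives. The size for Ccl4 depended on the thinning, with log2 differences of 0.75 and 0.64 in random draws 2 and 3. For Ccl3 these draws gave 0.68 and 0.8. Arid5b, a chromatin cofactor, was at 740 ± 205 against 281 ± 186 CPM (log2 difference 1.22 ± 0.32, edgeR adjusted p = 0.0474), a call lost in 8 of 12 alternatives, among them leaving out mouse 2 (adjusted p = 0.486). Its call was also lost in random draws 2 and 3 (log2 difference 0.69 and 0.84, edgeR adjusted p = 0.377 and 0.256).

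Ngp, neutrophilic granule protein, a marker of immature neutrophils, was lower in cells with Hcar2. It was at 325, 108 and 57.0 CPM in cells with Hcar2 of mice 1, 2 and 3 and at 638, 2112 and 2409 CPM in cells without. The direction was the same in 3 of 3 mice, with the smallest gap in mouse 1 (log2 difference -4.01 ± 0.40, edgeR adjusted p = 1.29e-06), and DESeq2 gave an adjusted p of 0.0692. The difference was -3.23 without mouse 2 and -2.73 with no thinning. The call of Ngp held in 10 of the 11 alternatives that gave it a value, and HTODemux assignment gave none. Retnlg, a resistin-like gene abundant in blood neutrophils, was at 2312 ± 1163 against 4867 ± 558 CPM, lower in 3 of 3 mice (log2 difference -1.26 ± 0.21, edgeR adjusted p = 0.00183), which with HTODemux assignment of the mice was 0.0739. Lyz2, lysozyme, was lower in 2 of 3 mice, at 654 ± 124 against 1568 ± 1053 CPM (log2 difference -1.63 ± 0.29, edgeR adjusted p = 0.00231), and without mouse 2 its adjusted p was 0.491. Cst3, cystatin C, and Actb, beta-actin, had log2 differences of -1.17 ± 0.23 and -0.66 ± 0.15 (edgeR adjusted p = 0.00581 and 0.0218), and each call was lost in 8 of 12 alternatives, leaving out mouse 2 or 3 among them for both and mouse 1 for Actb. Tmsb4x and S100a8 made up the 7. Cells with 2 or more macrophage or class II UMIs were 24 of the 362 cells with Hcar2 and 36 of the 270 without, and the median number of genes in a thinned cell was 237 and 247. Without cells that held markers of other types 3 genes were lower, and Lyz2, Cst3 and Actb had adjusted p = 0.0717, 0.0526 and 0.0717.

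**Figure D5:**
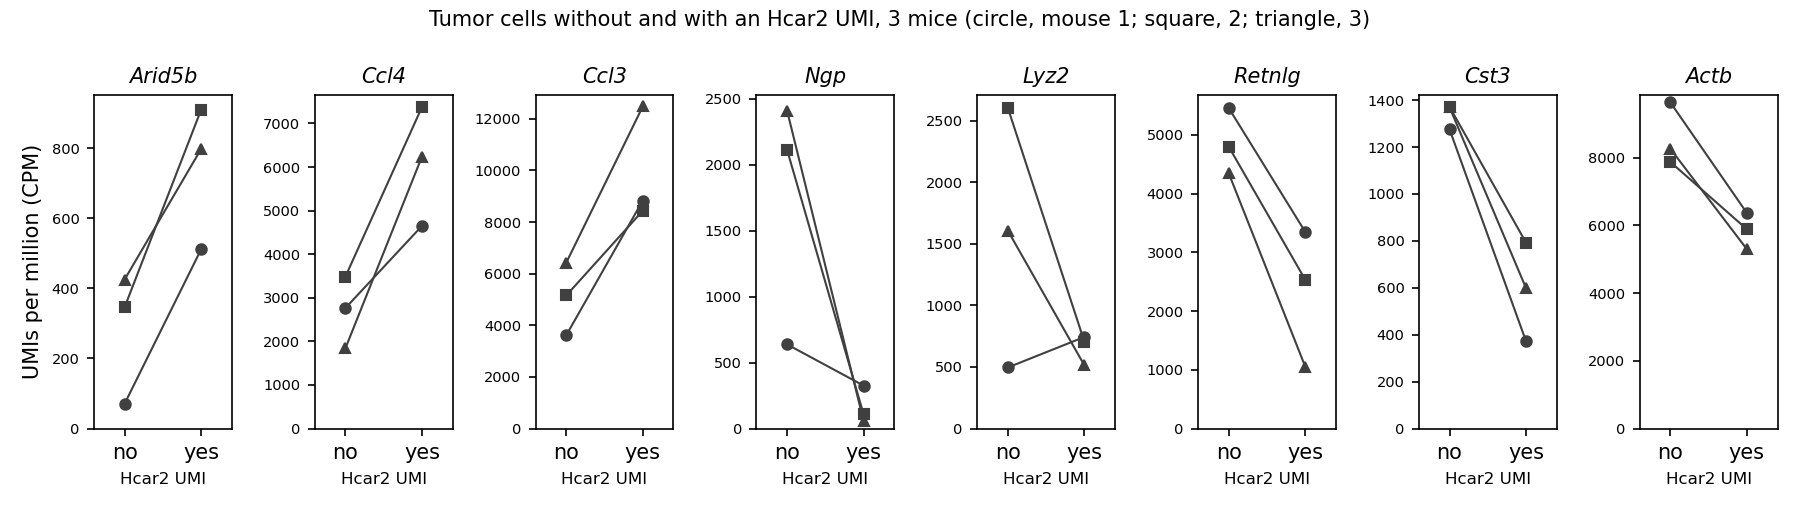
Level (vertical axis, CPM, linear and different in each panel) of the 8 named genes in thinned tumor cells without (no) and with (yes) an Hcar2 UMI, with a line joining the sums of each of 3 mice. Ccl4 and Ccl3 are higher with Hcar2 in 3 of 3 mice and Ngp and Retnlg lower in 3 of 3, while Lyz2 is lower in 2 of 3.

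By likeness of pattern, measured as the phi coefficient between presence of an Hcar2 UMI and of a UMI of the other gene, averaged over 3 mice in 632 thinned tumor cells, the 8 of 1091 genes most like Hcar2 were Arid5b (0.201), Ccl3 (0.2), Ccl4 (0.199), Gadd45b (0.188), Gm6977 (0.183), Ninj1 (0.171), Ccnl1 (0.165) and Ccrl2 (0.16). All are weak in counts this sparse, and they varied between mice: Ccrl2, a chemokine-binding receptor, had 0.157, 0.283 and 0.04 in mice 1, 2 and 3. The cells share a library and a depth, and no test was made of these values.

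Hcar2 itself was then read in tumor cells split by other genes. In cells with a UMI of Ccl4, Hcar2 was at 3165, 3582 and 3809 CPM in mice 1, 2 and 3, against 2430, 2062 and 2820 CPM in cells without it. It was higher in 3 of 3 mice, and the log2 difference of 0.54 ± 0.16 did not pass (edgeR adjusted p = 0.2, with 0.235% of 425 genes called higher and 0.706% lower, 0.941% in all). The adjusted p was 0.0431 without mouse 1 and 0.0177 without thinning. With Hilpda, a lipid droplet gene induced by low oxygen, Hcar2 was at 3374 ± 196 against 2599 ± 319 CPM, higher in 3 of 3 mice (log2 difference 0.36 ± 0.18, edgeR adjusted p = 0.143, with 14% of 428 genes called higher and 12.6% lower, 26.6% in all). With Retnlg it was at 2596 ± 39.0 against 3002 ± 298 CPM, lower in 3 of 3 mice (log2 difference -0.16 ± 0.19, edgeR adjusted p = 0.647, with 8.05% of 534 genes called higher and 5.62% lower, 13.7% in all). On either side of each split Hcar2 was at 2062 CPM or more in every mouse, far above the highest blood mouse at 32.1 CPM.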

How the data were processed

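The receptors and the lists of related genes were chosen with earlier results of these data known. The authors deposited raw UMI counts per gene and barcode (tumor 15901 genes, 10000 barcodes, 1315437 UMIs; blood 15236 genes, 10000 barcodes, 1969947 UMIs) and hashtag counts per barcode. STAR and mm10 are named per the submitters' processing notes. For the gene counter, its annotation, strand use and barcode filter, details were not given in the sources used here. A gene in a single file was given 0 in the other (12243 of 18894 are shared). The RNA files share 20 barcodes, and 0 of them among assigned cells.

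Barcodes with at least 200 genes (963 tumor, 1541 blood) and at most 15% mitochondrial UMIs (947 and 1534) were assigned to a mouse by at least 10 hashtag counts, at least 70% of them from 1 hashtag, which left 106 and 159 without a call. No other doublet step was taken. UMIs were summed per mouse and tissue (70612, 385370 and 116862 in tumor mice 1, 2 and 3, and 436713, 380059 and 330296 in blood), so precision is lowest in tumor mouse 1. Sums were tested with edgeR 4.0.16 (R 4.3.3; quasi-likelihood, default low-count filter, TMM, tissue as the only term, Benjamini-Hochberg at 0.05). Cells with and without a UMI of a gene were compared in the same way in 1 random draw thinned to 441 UMIs, the 25th percentile, with the mouse as a block. The sums are CPM of the deposited counts. The standard error (SE) of a log2 fold change is its size over the square root of the edgeR F value. For genes with few UMIs it can be smaller than counting error alone. Shares are exact expectations over draws (Python 3.11.15, SciPy 1.17.1), and intervals are exact at 95% and cover counting error only.

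Named were all chosen receptors, every list gene called with a log2 fold change over 1 in size (at most 6 a list), the 8 genes most like Hcar2, and up to 5 called genes a direction in the Hcar2 split. The hashtag numbers are not stated to mark the same mouse in both tissues. Alternatives were DESeq2 1.42.0, HTODemux of Seurat 5.3.0, other filters, thinning, pairing and leaving out mice. The unfiltered fit was combined with left-out mice and other cell filters for the receptors after the data were seen, since Hcar2 alone passed the filter. Simulated tests of tumor against blood (3403 genes) found 43 of 82 genes given a 2-fold change, 100 of 106 given a 4-fold change and 7 of 3215 given none. In the simulated Hcar2 split (413 genes) these were 64 of 85, 107 of 107 and 4 of 221. The simulated counts had a single spread (dispersion) for all genes and no effect of the mouse. The share of genes given a change also differed from the share called in the data. These rates therefore describe the simulated counts and need not hold for the data.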

Additional observations from a re-analysis of the deposited data

Results flagged for a closer look

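Hcar2 was present in tumor barcodes that no test used, above the level of barcodes of the same kind in blood. In barcodes with 20 to 60 UMIs it was at 876.8 CPM (95% Poisson interval 768 to 996), against 4.05 CPM in blood with an upper limit of 22.6. In barcodes with 200 genes or more that had no mouse call it was at 3334 CPM (2952 to 3751), against 16.0 CPM in blood with an upper limit of 57.9. Barcodes of the first kind are usually read as free RNA, and those of the second had mixed or few hashtag counts.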

How the results depend on the processing

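Hcar2 kept a log2 fold change of 6.26 to 7.07 over 17 alternatives. In the unfiltered fit Gpr84 ranged from 0.86 to 2.32 and P2rx4 from 1.91 to 2.89. Ffar2 was at -3.70 with HTODemux. Leaving out each mouse moved Ffar2 between -6.15 and -2.84 and P2rx4 between 1.91 and 2.89, -6.15 and 1.91 without tumor mouse 2, where the Ffar2 value depends on the prior count since no tumor UMI is left. Genes called higher and lower in tumor, 1111 and 1094, were 740 and 674 at a limit of 5% mitochondrial UMIs and 658 and 652 after thinning, where the related lists had 7 higher and 9 lower. The hashtag numbers were not used as pairs: same-numbered sums correlated at 0.023, 0.009 and -0.023 over 3674 genes, and not every sample correlated best with its own number. With a replicate block 993 genes were higher and 980 lower, and Hcar2 was at 6.73. In the Hcar2 split the 3 genes higher were 12 with no low-count filter, 18 with no thinning, 5 in the third random draw and between 2 and 14 with a mouse left out, 14 without mouse 1. The 7 lower were 1 with DESeq2, 46 with no thinning, 1 with HTODemux, 3 without cells that held markers of other types and between 2 and 19 with a mouse left out, 19 without mouse 1 and 2 without mouse 2. With no replicate block there 2 were higher and 7 lower. Hcar2 by Ccl4 was at 0.59 with no thinning and between 0.35 and 0.66 with a mouse left out, past the threshold without mouse 1. At 572 UMIs per cell the share of tumor cells with Hcar2 was 65.6% ± 7.34 and of blood cells with Ffar2 1.56%. No result reversed under the alternatives run. Of the named related genes 215 of 225 alternative values kept their call, while for the genes named in the Hcar2 split 66 kept it and 29 lost it. Alternatives in which a gene had no value are not in these counts. Pde4d had 12 alternative values and P2ry2 14, where Gpr35 had 17. The cause of each change was not tested. Depth limits the rarer receptors, which rest on few UMIs.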
